A study of Mus musculus with 6 samples.

Results

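The carriers of the SLC25 family were analyzed in splenic regulatory T cells (Tregs) that lacked the zinc finger protein Zfp335. The members were all genes of the count table whose symbol is Slc25a followed by a number, with the exception of Slc25a20, which was left out by the rule. This gave 46 members among 32285 rows. Bulk RNA-seq was done on CD4+CD25+ cells sorted from the spleens of C57BL/6 mice, with 3 libraries from control mice (WT) and 3 from ERCre+ Zfp335 fl/fl mice (KO). ERCre joins Cre to an estrogen receptor that responds to tamoxifen. It is not tied to one cell type, so the drug deletes Zfp335 in Tregs and in other cells alike. Tamoxifen at 10 mg/ml was injected 3 times, 100 μl each time, into mice aged 6 weeks, and the cells were taken on day 7. The labels describe the controls as wild-type littermates and are silent on the drug. In the study's methods they are ERCre mice that received it too, so only the methods tell that both groups share the Cre allele and the treatment.

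SLC25 carriers are small proteins of the mitochondrial inner membrane, which is otherwise closed to most charged metabolites. Each carrier moves or exchanges a narrow set of substrates, such as ADP for ATP, phosphate with protons, aspartate for glutamate, iron, amino acids, or cofactors. They are encoded in the nucleus, made in the cytosol, and inserted by the TIM22 complex. Tregs are known to rely on mitochondrial respiration more than effector T cells do, and respiration needs a supply of ADP, phosphate, and reducing equivalents through these carriers.

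The targeted gene was lower in every KO library. Zfp335 was counted at 124.4, 120.7, and 115.2 CPM in WT and at 14.3 to 15.1 CPM in KO, and fell by 3.02 on the log2 scale (SE, the standard error, 0.0461). CPM are a gene's counts divided by the scaled library total and set to a common base, and the totals lay between 133283969 and 209041812 counts. Defining Treg genes were present in all libraries, with Foxp3 at 1136 ± 17.4 CPM in WT and 1052 ± 9.24 in KO (SD, n = 3), and Il2ra, which encodes the CD25 used for the sort, at 479.6 ± 16.0 and 433.4 ± 5.99. Both fell, Ctla4 rose, and Cd4, Cd3e, and Ikzf2 did not pass. RNA of other cells was also present and was lower in KO. The summed level of 10 red cell markers was 39.8 to 46.6 CPM in WT and 2.50 to 3.22 CPM in KO, and 8 of the 10 fell. The summed level of 5 B cell markers was 45.4 to 49.5 CPM in WT and 21.1 to 23.0 in KO, and that of 7 myeloid markers was 40.4 to 47.3 and 20.8 to 22.4. All 5 B cell markers and 6 of the 7 myeloid markers fell, while the sum of 4 CD8 T and NK markers reached 15.9 CPM in WT and 15.8 in KO at most. Xist, made from the inactive X chromosome, was at 0.272 ± 0.132 CPM in WT and 134.6 ± 10.4 in KO (SD, n = 3). RNA of Y-linked genes was present in all libraries, of which Ddx3y, Kdm5d, and Uty fell and Eif2s3y did not pass. In bulk samples, fewer cells of a type and less RNA per cell cannot be told apart.

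Most SLC25 carriers differed little between WT and KO. Of the 46 members, 41 passed edgeR's filter on low counts and were tested, and 8 of them (19.5%) differed at an adjusted p under 0.05. Among all 17307 genes tested, 24.1% did. Slc25a25, Slc25a36, Slc25a3, Slc25a38, and Slc25a28 rose in KO (5 members, 12.2%, against 12% of all genes), and Slc25a24, Slc25a46, and Slc25a12 fell (3 members, 7.32%, against 12.1%). Under the cutoffs that the study's methods give for bulk RNA-seq of Foxp3Cre mice, at least 1.5-fold with an unadjusted p under 0.05 and an adjusted p under 0.1, Slc25a25 alone passed among the members. These cutoffs selected 6.95% of all genes, 2.58% as higher and 4.37% as lower. The CPM of WT and KO did not overlap for 15 of the 41 members (36.6%) and for 38.3% of all genes.

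The 33 remaining members were spread around 0. Of these members that did not pass, 18 had a log2 fold change within 0.1 of 0. Over all 41 tested members, those that passed included, 21 log2 fold changes were positive and 20 negative. The median log2 fold change was 0.0148 over the members and -0.00420 over all genes, and the member median became -0.0160 when library totals alone were used for scaling and -0.00377 without WT replicate 3. The median absolute log2 fold change was 0.130 over the members and 0.154 over all genes. The count of members that passed was between 4 and 10 when single libraries were left out, with 4 without WT replicate 2 and 5 without any one of the KO libraries. Among all genes, 4170 passed with all libraries, 2740 without WT replicate 2, and 2800 to 2986 without a KO library. The number that rose was 3 without WT replicate 2, and the number that fell was 5 without WT replicate 1 and 1 without WT replicate 2 or any one of the KO libraries. Slc25a17 and Slc25a32 were gained without WT replicate 1, and Slc25a29 and Slc25a35 without WT replicate 3. With upper-quartile scaling, 5 members rose and 5 fell, and with library totals alone 4 rose and 5 fell. In every one of the 18 alternatives run, Slc25a25, Slc25a36, and Slc25a3 rose and Slc25a24 fell.

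**Figure D1:**
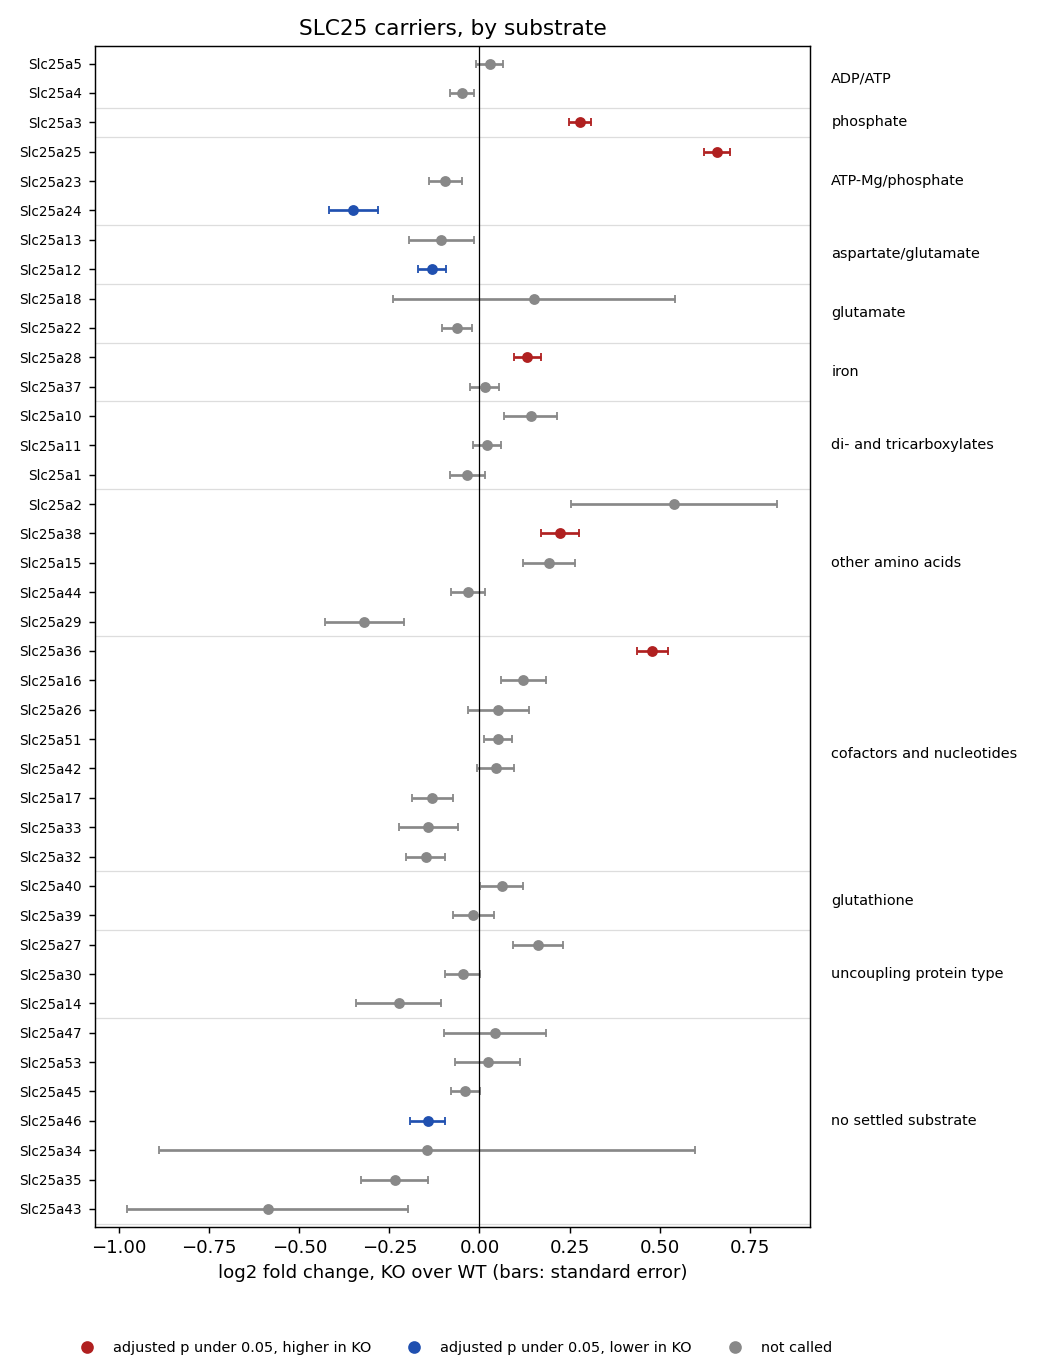
Log2 fold change of KO over WT (horizontal axis) for 40 of the 41 SLC25 carriers tested, grouped by substrate, with bars for the standard error. Red and blue points mark the 5 carriers that rose and the 3 that fell, from 0.66 for Slc25a25 to -0.35 for Slc25a24, and the wide bars belong to carriers with few counts.

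The ADP/ATP carriers, which bring ADP into the matrix and export ATP, did not pass the test. Slc25a5, the form of most dividing cells, was at 359.0, 359.0, and 388.5 CPM in WT and 384.1, 376.1, and 368.0 CPM in KO. Slc25a4, the form known from heart and muscle, was at 77.9, 79.7, and 79.5 CPM in WT and 77.0, 76.3, and 75.9 CPM in KO. The Slc25a5 values overlapped between groups, and those of Slc25a4 were lower in KO by a small margin. The log2 fold changes were 0.029 (SE 0.0375, adjusted p = 0.645 in edgeR) and -0.049 (SE 0.0342, adjusted p = 0.348 in edgeR). Neither passed at an unadjusted p under 0.05, nor in DESeq2 or limma-voom. Per length, Slc25a5 made up 86.6% to 87.5% of the summed level of ADP/ATP carriers in WT and 87.4% to 87.7% in KO. Slc25a5 shares 33.8% of its 50-base stretches with 9 processed pseudogenes, so its counts are less certain than those of Slc25a4, which shares none.

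Slc25a3, the phosphate carrier that supplies the ATP synthase, rose in KO. Its level was 487.0, 487.6, and 506.2 CPM in WT and 608.2, 596.6, and 592.0 CPM in KO. All KO libraries lay above all WT libraries, with a gap wider than the spread of either group. The log2 fold change was 0.28 (SE 0.0315, adjusted p = 2.74e-05 in edgeR), a level 21.4% higher. Slc25a3 was the member with the most counts. The sum over all members was 2026 to 2086 CPM in WT and 2180 to 2226 CPM in KO. The gene spans 91116574 to 91124059 of chromosome 10 in GRCm38 and is read from the minus strand.

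The ATP-Mg/phosphate carriers moved in opposite directions. These carriers exchange ATP-Mg for phosphate and set the adenine nucleotide pool of the matrix. Slc25a23, Slc25a24, and Slc25a25 are switched on by calcium through EF-hands on the cytosolic side. Slc25a25 was at 56.2, 56.8, and 54.0 CPM in WT and 88.3, 87.1, and 88.5 CPM in KO. This rise, the largest among the members that passed, was 0.66 on the log2 scale (SE 0.0364, adjusted p = 3.66e-08 in edgeR), a level 57.9% higher. Slc25a24 was at 21.9, 25.2, and 25.8 CPM in WT and 18.3, 20.4, and 18.3 CPM in KO. It fell by 0.35 on the log2 scale (SE 0.0687, adjusted p = 0.00234 in edgeR), its level decreased by 21.6%, and the highest KO library lay below the lowest WT library. Slc25a23 was at 43.0, 40.1, and 44.3 CPM in WT and 40.2, 40.1, and 38.8 CPM in KO, values that overlapped slightly between the groups, and did not pass (log2 fold change -0.095, adjusted p = 0.165). Slc25a41 was not tested and had 4, 0, and 0 counts in WT and 12, 14, and 5 in KO. Per length, in TPM computed from counts and exon lengths, Slc25a25 and Slc25a24 stood at the same level in WT (24.5 ± 0.940 and 24.5 ± 1.92 TPM, SD, n = 3) and at 38.3 ± 0.302 and 19.0 ± 1.27 in KO. Slc25a25 overlaps Naif1 on the opposite strand by 379 exonic bases. Naif1 was at 12.2 ± 0.244 CPM in WT against 11.9 ± 0.0466 in KO (SD, n = 3) and did not pass.

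**Figure D2:**
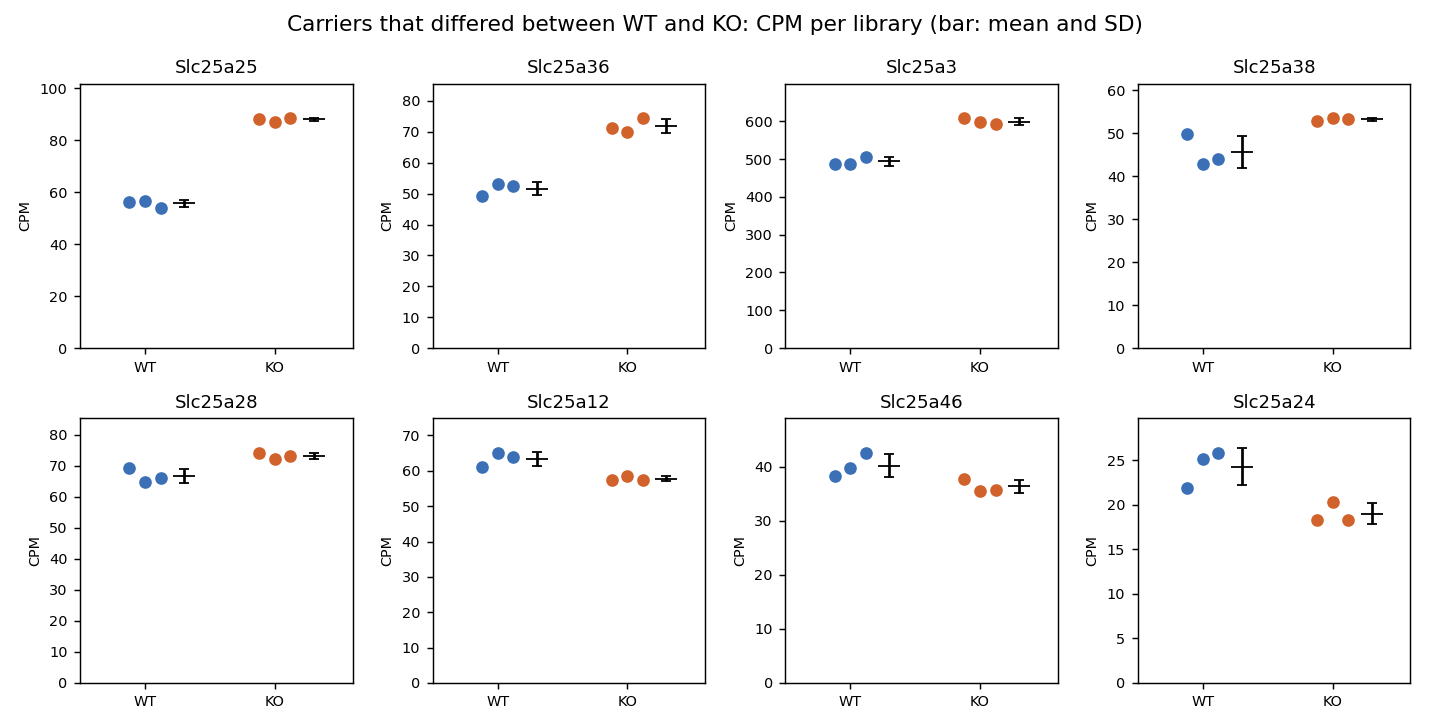
CPM (vertical axis, from 0) in each of the 3 WT (blue) and 3 KO (orange) libraries for the 8 carriers that differed, ordered from the largest rise to the largest fall, with the mean and SD in black. For Slc25a25 the KO libraries lie between 87.1 and 88.5 CPM, above all WT libraries, whereas the shifts of Slc25a28, Slc25a12, and Slc25a46 are small.

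The bases before a transcript start are shown for the 4 carriers that passed in every alternative, to let their promoters be compared. They are taken from RefSeq windows on GRCm38.p6 and run 5′ to 3′ on the gene's strand, ending before the first base that GENCODE counts as exonic. Capitals mark the cAMP response element TGACGTCA, which is the same on both strands. The windows are chr2:32424067-32424316 (minus strand) for Slc25a25, before one of its internal starts, chr9:97111158-97111291 (minus) for Slc25a36, chr10:91124060-91124217 (minus) for Slc25a3, and chr3:109122899-109123148 (plus) for Slc25a24.
Slc25a25: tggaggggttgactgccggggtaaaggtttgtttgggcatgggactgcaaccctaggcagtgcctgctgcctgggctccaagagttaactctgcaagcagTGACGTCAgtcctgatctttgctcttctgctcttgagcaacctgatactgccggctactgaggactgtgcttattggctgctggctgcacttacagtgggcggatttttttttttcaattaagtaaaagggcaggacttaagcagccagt
Slc25a36: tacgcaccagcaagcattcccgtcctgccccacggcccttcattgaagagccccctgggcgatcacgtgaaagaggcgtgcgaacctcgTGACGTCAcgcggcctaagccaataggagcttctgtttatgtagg
Slc25a3: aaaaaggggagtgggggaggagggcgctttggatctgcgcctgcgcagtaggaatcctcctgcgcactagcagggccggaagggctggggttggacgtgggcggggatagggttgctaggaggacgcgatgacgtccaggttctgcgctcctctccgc
Slc25a24: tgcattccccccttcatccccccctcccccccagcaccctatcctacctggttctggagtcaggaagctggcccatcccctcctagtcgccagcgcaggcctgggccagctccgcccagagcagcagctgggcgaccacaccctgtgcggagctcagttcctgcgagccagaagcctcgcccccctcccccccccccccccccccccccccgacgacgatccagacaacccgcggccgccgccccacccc
Of the 35 members with such a window of 250 bases, TGACGTCA was found for Slc25a25 and Slc25a36, against 1.77% of the 27025 genes with a window. For Slc25a25 it lay in the window shown only. The windows of its other starts, chr2:32431152-32431401 and chr2:32451471-32451720, did not hold it and are not shown. Counts were per gene and do not tell which start these cells used. This element was searched for after the windows had been read. Its presence in the carriers with the largest rises among those that passed is therefore a description only. The NRF1 element GCGCATGC, sought on both strands, was found for Slc25a31 and Slc25a54 (2.56% of all genes), which had few or no counts. TCAAGGTCA, the element of estrogen-related receptors, and AAGATGGCG, the YY1 element, were found in none of the members' windows, and in 0.422% and 0.710% of all genes. No match says only that these letters are not in this window.

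The aspartate/glutamate carriers serve the malate-aspartate shuttle, which brings reducing equivalents from the cytosol into the matrix. Slc25a12 was at 61.0, 65.1, and 64.0 CPM in WT and 57.4, 58.5, and 57.5 CPM in KO. It fell by 0.13 on the log2 scale (SE 0.0388, adjusted p = 0.0249 in edgeR), and the groups did not overlap. Slc25a13 was below Slc25a12 in every library, at 5.16, 5.77, and 5.62 CPM in WT and 5.04, 4.81, and 5.53 CPM in KO. Its groups overlapped (log2 fold change -0.11, adjusted p = 0.450). The call of Slc25a12 was lost without WT replicate 2 (log2 fold change -0.11, adjusted p = 0.130) and without KO replicates 1, 2, or 3 (adjusted p = 0.0965, 0.0737, and 0.0891). Of 9 enzymes of the malate-aspartate and citrate shuttles, Got1, the cytosolic aspartate aminotransferase, rose from 49.1 ± 0.842 to 62.5 ± 2.60 CPM (SD, n = 3; log2 fold change 0.35, adjusted p = 4.45e-05). The other 8 enzymes, among them Got2, Mdh1, and Mdh2, did not pass and ranged from -0.14 to 0.033 in log2 fold change. Of all genes tested, 24.1% passed.

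The carriers of glutamate and of di- and tricarboxylates did not pass. Both glutamate carriers lay between -0.063 and 0.15 in log2 fold change, and the upper value belonged to Slc25a18, which was below 1 CPM in all libraries. The 3 tested carriers of di- and tricarboxylates, the citrate carrier Slc25a1, the dicarboxylate carrier Slc25a10, and the oxoglutarate/malate carrier Slc25a11, lay between -0.034 and 0.14. In neither group did a member pass at an unadjusted p under 0.05, nor in DESeq2 or limma-voom. The oxodicarboxylate carrier Slc25a21 was not tested, with 3, 4, and 4 counts in WT and 4, 0, and 5 in KO. Slc25a11 shares 189 exonic bases with Rnf167 on the opposite strand, which itself fell from 167.8 ± 2.63 to 150.7 ± 2.72 CPM (SD, n = 3).

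The mitoferrins carry iron to the matrix, where iron-sulfur clusters and haem are made. Slc25a28 (mitoferrin 2), known from many tissues, was at 69.2, 64.9, and 66.0 CPM in WT and 74.1, 72.3, and 73.0 CPM in KO. It rose by 9.68% (log2 fold change 0.13, SE 0.0380, edgeR adjusted p = 0.0216), and the groups did not overlap. Slc25a37 (mitoferrin 1), best known from red cell precursors, was at 64.5, 68.8, and 69.5 CPM in WT and 69.5, 67.3, and 67.9 CPM in KO, with overlapping groups (log2 fold change 0.015, adjusted p = 0.837). The red cell markers differed between the groups as given above, and the part of red cell RNA in the Slc25a37 level was not tested. The call of Slc25a28 was lost with library totals alone (log2 fold change 0.10, adjusted p = 0.0644), without WT replicate 2 (adjusted p = 0.114), and without KO replicates 1, 2, or 3 (adjusted p = 0.0892, 0.0625, and 0.0671).

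Of 22 tested genes of iron-sulfur cluster and haem synthesis and iron supply, 5 rose, 1 fell, and 16 did not pass, a share near the 24.1% of all genes that differed. Isca1, which helps to assemble iron-sulfur clusters, rose from 45.7 ± 0.486 to 57.5 ± 0.629 CPM (SD, n = 3; log2 fold change 0.33). The transferrin receptor Tfrc rose from 79.0 ± 2.08 to 94.1 ± 3.24 CPM (log2 fold change 0.25), and the ferritin light chain Ftl1 from 586.5 ± 13.5 to 677.1 ± 13.3 CPM (0.21). Fech, the enzyme that puts iron into haem, rose by 0.21 on the log2 scale, and Ppox, a step before it, by 0.15. Lyrm4, a partner of the cysteine desulfurase, fell by 0.30 on the log2 scale, from 6.54 ± 0.365 to 5.29 ± 0.279 CPM.

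Among the 5 carriers of other amino acids, Slc25a38, the glycine carrier that feeds haem synthesis, rose. Its level was 49.8, 42.9, and 43.9 CPM in WT and 52.9, 53.5, and 53.3 CPM in KO. The KO libraries were tight, and WT replicate 1 lay nearer to them than to the other WT libraries. The log2 fold change was 0.22 (SE 0.0525, adjusted p = 0.00753 in edgeR), and it was 0.18 (adjusted p = 0.0564) without WT replicate 2. The other 4, among them the ornithine carrier Slc25a15 and the branched-chain amino acid carrier Slc25a44, ranged from -0.32 to 0.54 and did not pass. The lower end was the basic amino acid carrier Slc25a29, named after its values were seen, which was at 6.96, 6.09, and 5.34 CPM in WT and 5.18, 5.33, and 4.36 CPM in KO. Its adjusted p of 0.0511 was just above the threshold and went below it in 9 of the 18 alternatives. The upper end was Slc25a2, at 0.297 to 0.476 CPM in WT and 0.468 to 0.582 CPM in KO.

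Slc25a36, a pyrimidine nucleotide carrier that supplies the matrix with precursors of mitochondrial DNA and RNA, rose among the 9 carriers of cofactors and nucleotides. It was at 49.1, 53.1, and 52.5 CPM in WT and 71.1, 70.1, and 74.4 CPM in KO. The gap between the groups was wider than the spread of either, with a log2 fold change of 0.48 (SE 0.0428, adjusted p = 3.18e-06 in edgeR), a level 39.4% higher. Slc25a36 shares 6.70% of its 50-base stretches with the pseudogene Gm13217. The other 8, which carry pyrimidine nucleotides (Slc25a33), NAD (Slc25a51), folate and FAD (Slc25a32), coenzyme A (Slc25a42), S-adenosylmethionine (Slc25a26), or related cofactors, did not pass and ranged from -0.15 to 0.12 in log2 fold change. The lower end was Slc25a32, with an adjusted p of 0.0601 that went below 0.05 in 5 of the 18 alternatives.

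The glutathione carriers and the carriers of uncoupling protein type did not pass. Slc25a39, which brings glutathione into the matrix, and its paralogue Slc25a40 had log2 fold changes of -0.017 and 0.061. The 3 carriers related to uncoupling proteins, Slc25a14, Slc25a27, and Slc25a30, lay between -0.22 and 0.16. Without adjustment Slc25a27 alone among these 5 carriers was under 0.05, and none passed in DESeq2 or limma-voom after adjustment. Of the relatives that bear another name, Ucp2, an uncoupling protein of immune cells, stood at 916.7 ± 63.0 CPM in WT against 997.0 ± 16.9 in KO (SD, n = 3; log2 fold change 0.12, adjusted p = 0.0617). Of the 4 relatives tested, Mtch1, an outer membrane protein of the same family, fell from 89.4 ± 7.37 to 77.5 ± 1.75 CPM (SD, n = 3; log2 fold change -0.21, adjusted p = 0.0102). It was the only relative that passed, against 24.1% of all genes tested.

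Of the 7 tested members with no settled substrate, Slc25a46, an outer membrane protein linked to mitochondrial fission and lipid transfer, fell. It was at 38.3, 39.8, and 42.5 CPM in WT and 37.8, 35.5, and 35.7 CPM in KO, and the highest KO library came close to the lowest WT library. The log2 fold change was -0.14 (SE 0.0489, adjusted p = 0.0483 in edgeR). This call was the least stable and was lost in 9 of the 18 alternatives, with the replicate number as a block (adjusted p = 0.0575) and with limma-voom (adjusted p = 0.0554) among them. It was also lost without WT replicates 2 or 3 (log2 fold change -0.15 and -0.10) and without KO replicates 1, 2, or 3 (-0.17, -0.13, and -0.13). Slc25a46 shares 383 exonic bases with B930094E09Rik on the opposite strand, which was below 1 CPM in all libraries. The other 6 ranged from -0.59 to 0.043 and did not pass.

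Because Xist RNA differed between the groups, members on the X chromosome were looked at on their own. Slc25a5, Slc25a14, Slc25a43, and Slc25a53 lie there, and their log2 fold changes were between -0.59 and 0.029. None of the 4 passed in edgeR, also at an unadjusted p under 0.05, in DESeq2, or in limma-voom, and the lowest value belonged to Slc25a43, which was below 1 CPM in all libraries. Sex-linked genes outside the family differed as well, with Ddx3y at 102.7 ± 3.88 CPM in WT against 78.7 ± 1.81 in KO (SD, n = 3). Since Xist RNA and the deletion moved together in all 6 libraries, their parts in the carriers' levels cannot be told apart.

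The carriers are imported by the TIM22 route. Of its 10 genes, Timm29, a subunit of the TIM22 complex, rose from 57.8 ± 0.636 to 68.3 ± 1.83 CPM (SD, n = 3; log2 fold change 0.24, edgeR adjusted p = 0.000436). The other 9, among them the channel Timm22, the small chaperones Timm9 and Timm10, and the receptor Tomm70a, did not pass, with log2 fold changes from -0.17 to 0.037. Of 3 outer-membrane channels, through which metabolites reach the carriers, Vdac2 fell from 112.1 ± 5.51 to 95.5 ± 2.20 CPM (log2 fold change -0.23, adjusted p = 0.00108). So 1 of the 10 import genes and 1 of the 3 channels passed, against 24.1% of all genes tested. Of 18 other inner-membrane transport genes, 2 rose (12% of all genes did), 4 fell (12.1% of all genes did), and 12 did not pass. Mcub, the inhibitory subunit of the calcium uniporter, fell by 0.31 on the log2 scale (adjusted p = 0.00383). The ABC transporters Abcb10 and Abcb8 fell by 0.38 and 0.16, and Sfxn3 and Ghitm rose by 0.12 and 0.11. The pyruvate carrier genes Mpc1 and Mpc2 were at 20.2 ± 2.74 and 19.8 ± 0.860 CPM in WT against 20.9 ± 0.749 and 20.7 ± 0.898 in KO (SD, n = 3) and did not pass.

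The balance between carriers of related function was compared within each library, since a ratio of counts from the same library does not depend on scaling. For 6 pairs the log2 ratio was compared between groups by a two-sided exact permutation test, in which 3 against 3 libraries cannot go below p = 0.1. The ratio of Slc25a25 to Slc25a24 was 1.36, 1.17, and 1.06 in WT and 2.27, 2.10, and 2.27 in KO on the log2 scale. The difference of 1.01 (SE 0.104) came with the smallest p this design allows (exact p = 0.1, adjusted p = 0.24 over the 6 pairs). The ratio of the pyrimidine nucleotide carriers Slc25a36 and Slc25a33 was 2.79, 2.71, and 2.68 in WT and 3.41, 3.23, and 3.42 in KO, a difference of 0.63 (SE 0.070, exact p = 0.1, adjusted p = 0.24). For both pairs all KO libraries lay above all WT libraries, and because their members were also tested one by one, these differences are no separate evidence. The other 4 pairs differed by 0.078 for Slc25a5 to Slc25a4, 0.077 for Slc25a40 to Slc25a39, 0.025 for Slc25a13 to Slc25a12, and -0.12 for Slc25a37 to Slc25a28. Their exact p values were 0.2, 0.2, 0.8, and 0.2, which does not show that these ratios were equal.

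**Figure D3:**
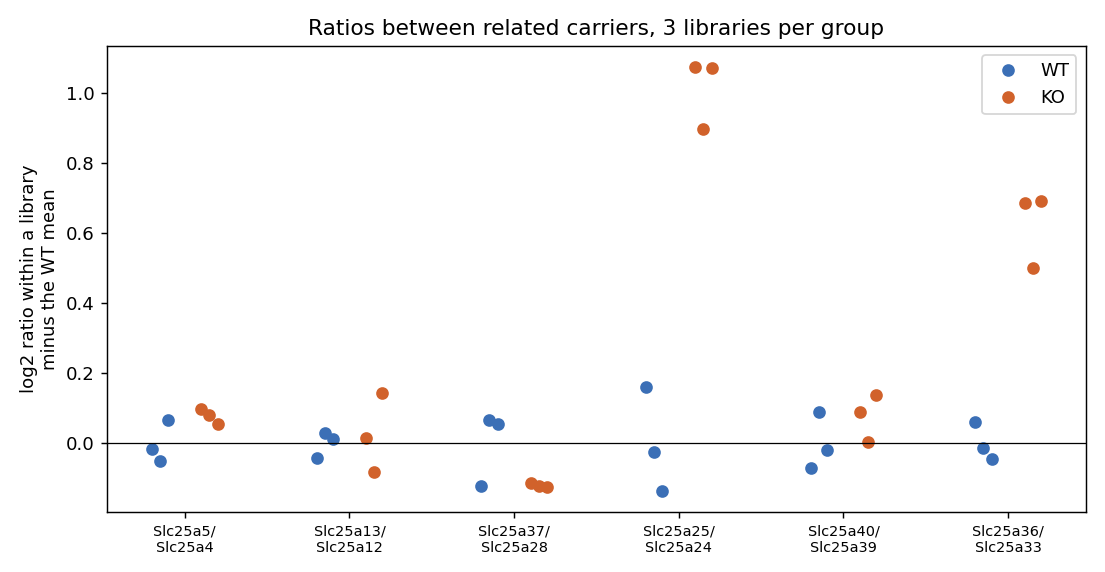
Log2 ratio of 2 related carriers within each library, minus the WT mean (vertical axis), for 6 pairs (horizontal axis), with 3 WT libraries in blue and 3 KO libraries in orange. The KO libraries lie on average 1.01 above WT for Slc25a25 to Slc25a24 and 0.63 above WT for Slc25a36 to Slc25a33, and within 0.12 of the WT mean on average for the other pairs.

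Levels of different carriers were compared per length, as TPM computed from the counts and the summed length of all GENCODE exons of a gene, which can exceed that of a single transcript. Slc25a5 and Slc25a3 together held 50.4% of the family's sum in WT. In WT, Slc25a5 was at 775.0 ± 25.7 (SD, n = 3), or 36.1%, and Slc25a3 at 307.7 ± 2.82, or 14.3%. In KO their shares were 35.3% and 16.7%. Next in WT came Slc25a4 (116.2 ± 1.40), the oxoglutarate/malate carrier Slc25a11 (112.8 ± 5.82), Slc25a39 (75.7 ± 6.60), Slc25a28 (61.6 ± 2.51), and Slc25a38 (57.4 ± 5.15). Slc25a4 and Slc25a11 did not differ from each other beyond their spread, nor did Slc25a28 and Slc25a38. Slc25a5 and Slc25a3 were each apart from the next in order by many times their SD, which does not cover the choice of length. Their order and shares depend on the exon lengths used, 1646 bases for Slc25a5 and 5550 for Slc25a3. In CPM, without a length, Slc25a3 was the higher of these 2 in WT (493.6 ± 10.9 against 368.8 ± 17.1, SD, n = 3). Slc25a25 stood at position 19 in WT, within the spread of Slc25a24, and in KO at 38.3 ± 0.302 it was beside Slc25a37 (38.8 ± 0.404). Slc25a36 was at 18.6 ± 0.691 in WT and 25.7 ± 0.866 in KO.

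**Figure D4:**
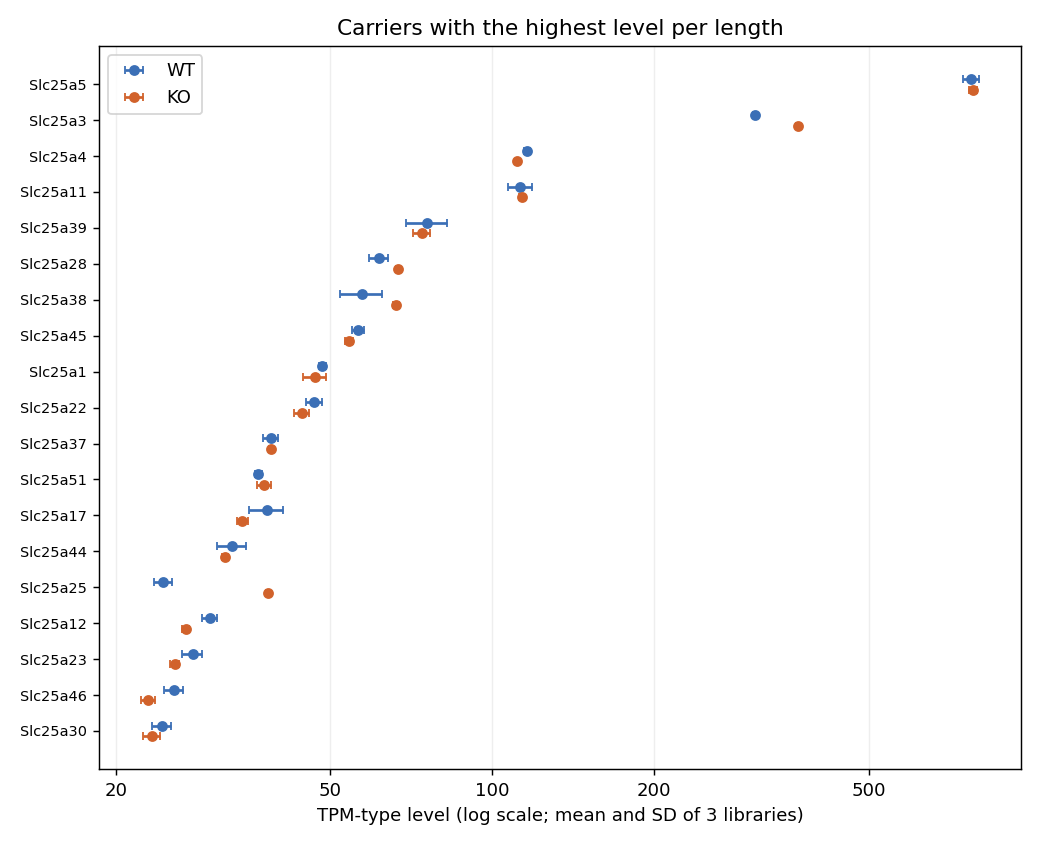
Level per length in TPM (horizontal axis, log scale) of 19 of the 20 carriers with the highest mean level, with the mean and SD of 3 WT (blue) and 3 KO (orange) libraries. With the exon lengths used, Slc25a5 stands above all others at 775.0 in WT. The separation of the colors is widest for Slc25a25, from 24.5 in WT to 38.3 in KO.

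The 5 members that did not pass the filter were Slc25a31, Slc25a41, Slc25a21, Slc25a48, and Slc25a54. Slc25a31, the ADP/ATP carrier of the germ line, had 12 counts in KO replicate 1 and 0 elsewhere. Slc25a48 had 5 counts in KO replicate 3 and 0 elsewhere, and Slc25a54 had 0 in all 6 libraries. With these 5, a total of 9 members were below 1 CPM in both groups, so that differences in them were not detectable at this depth.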

How the data were processed

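RNA was measured by bulk RNA-seq in 6 libraries. For all of them the authors deposited 1 table of raw counts, not normalized, with a row per gene symbol. The submitters' processing notes name HISAT2, DESeq2, and the build mm10. For bulk RNA-seq of Foxp3Cre mice, the study's methods describe HISAT2 set to report 1 alignment per read and StringTie for TPM. They do not say whether this holds for the counts of these ERCre mice, whose counting tool and strand setting are not given in the sources used here. Reads that match several genes and unstranded counting would affect carriers with pseudogenes or overlapping genes on the other strand. Entries of 1 and 2 in the table were rarer than entries of 4 (620, 1045, and 2579), so counting error was not derived from totals, and counts divided by 4 were tried.

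Counts were analyzed in R 4.3.3 with edgeR 4.0.16 (TMM scaling, filterByExpr, robust quasi-likelihood F-test without the legacy method, group as the only term) on the whole table, with Benjamini-Hochberg adjustment over 17307 genes. Standard errors were derived from the F statistic. The study used DESeq2, which was run as an alternative (version 1.42.0), as was limma-voom (limma 3.58.1). Ratios used CPM with a prior count of 2. Gene positions, exon lengths, and shared stretches of 50 bases came from the GENCODE annotation of GRCm38, which held 97.3% of the symbols; 40 rows repeat a symbol. The fit was tested on simulated counts. No sequences of proteins were used here. Some genes that were tested and counted are not reported here by name.

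The named genes were the tested carriers of ADP/ATP, phosphate, ATP-Mg/phosphate, aspartate/glutamate, or iron, every other carrier with an adjusted p under 0.05, the carriers not tested, and at most 4 genes with the smallest adjusted p from each list outside the family. Members of the pairs and those highest per length are named too. Other genes named, such as Slc25a29, Slc25a32, Slc25a2, Slc25a17, Slc25a18, Slc25a27, Slc25a35, Slc25a43, Ppox, Lyrm4, Abcb8, Sfxn3, Ucp2, Mpc1, Mpc2, and overlapping genes, were chosen after their values were seen. The members and lists were chosen with earlier results of these data known, so that no pattern given is independent support for them. The labels do not say whether the libraries came from separate mice, and p values then measure only the spread between these libraries.

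Groups came from the labels. Replicate numbers are shared by the groups, but samples with the same number did not deviate together (correlations 0.0727, -0.0258, and 0.00139), and they were not treated as pairs. Replicate libraries differed by more than counting noise, so none was counted as a duplicate.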

Additional observations from a re-analysis of the deposited data

How the results depend on the processing

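The 41 tested carriers were refitted under 18 alternatives, 2 of them (counts divided by 4, and removal of the trend on GC content) chosen after seeing the data. Slc25a2, Slc25a18, Slc25a34, and Slc25a43 were filtered out with a minimum of 1 CPM in 3 libraries, and Slc25a34 also with counts divided by 4, so they have no value there. No log2 fold change that passed reversed, 33 carriers kept their side of the threshold in all alternatives that tested them, calls were lost 19 times, and calls were gained 16 times. Without the replicate number as a block 8 members passed and with the replicate block 8 did, of which 7 were shared, Slc25a46 being lost and Slc25a29 gained. The block changed the call of no other member, and the numbers are not known to pair the samples. The number of members that fell was 3 and became 5 with scaling by upper quartiles, 5 with unscaled library totals, 5 with a minimum of 1 CPM in 3 libraries, and 5 with counts divided by 4. Leaving out single libraries gave between 4 and 10 members in all, between 3 and 5 that rose, and between 1 and 5 that fell. The number of all genes that passed moved as well. It was 4170 with all libraries, 2740 without WT replicate 2, 2800 to 2986 without a KO library, and 4996 without WT replicate 1. The cause of these changes was not tested. Slc25a25 alone passed the study's cutoffs throughout. The log2 fold change ranged from 0.63 to 0.67 for Slc25a25, from 0.44 to 0.55 for Slc25a36, from 0.25 to 0.30 for Slc25a3, and from -0.42 to -0.31 for Slc25a24. The difference in the log2 ratio of Slc25a13 to Slc25a12, KO minus WT, turned from 0.025 to -0.034 without KO replicate 3. The ratios of related carriers cannot reach p under 0.05 with 3 libraries per group.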
